A study of Mus musculus with 6 samples.

Results

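The levels of 8 genes that are widely used to recognize macrophages, Adgre1, Cd68, Cd14, Lyz2, Lyz1, Mpeg1, Aif1 and Ptprc, were compared in the RNA of tumor-associated macrophages (TAMs) from mice with and without the complement receptor C5aR. They are 8 of 56980 genes in the deposited table, found by matching each mouse Ensembl identifier to its symbol, and all 8 passed the filter on low values, as did 14776 genes in all. The filter kept genes that reached 1 TPM in 3 or more libraries. The genes were chosen by name as macrophage markers, and were selected on their measured TPM within and between these WT and C5aR-/- libraries, so their own values are given as a description with no test.

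There were 6 libraries, 3 from TAMs of WT C57BL/6 mice (WT TAM 1 to 3) and 3 from TAMs of C5aR-/- mice on the C57BL/6 background (C5aR-/- TAM 1 to 3). All mice were female, were bought at 6 to 8 weeks of age and received ID8 cells, a mouse ovarian epithelial tumor line, in the abdominal cavity. Tumors were taken 2 months later. TAMs were sorted from them as live cells that carried CD45, CD11b and F4/80 on the surface and lacked Ly6G. The receptor was missing from every cell of the C5aR-/- hosts and not from macrophages alone, while the injected tumor cells carried their own copies of the gene. The labels do not say whether a library holds 1 animal or several, nor that the 3 libraries of a group came from separate animals, so a p-value here measures only the spread between these libraries. Values are TPM, the abundance of a gene's transcripts scaled for their length and for the library total. They can be compared between genes and keep no record of sequencing depth.

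F4/80, the product of Adgre1, is an adhesion G protein-coupled receptor on the surface of mature mouse macrophages, and CD45, the product of Ptprc, is a tyrosine phosphatase on all white blood cells. CD68 is a glycoprotein of the late endosome and lysosome, and CD14 hands bacterial lipopolysaccharide to Toll-like receptor 4. Lyz2 and Lyz1 encode lysozyme, which cuts bacterial cell walls and in the mouse is made mainly by myeloid cells from Lyz2 and by Paneth cells of the gut from Lyz1. Mpeg1 encodes perforin-2, a pore-forming protein of phagocytes, and Aif1 encodes Iba1, a calcium-binding protein that bundles actin. Since 2 of the 8 products, F4/80 and CD45, were part of the sort, the cells had been selected for the protein of Adgre1 and Ptprc before any RNA was measured.

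The deleted gene followed the labels. C5ar1, which encodes C5aR, was at 86.5, 37.3 and 16.2 TPM in WT TAM 1, 2 and 3 and at 0.38, 0.11 and 0.05 TPM in C5aR-/- TAM 1, 2 and 3. Its log2 difference was -5.04 (SE 0.56), with an adjusted p of 0.0666 by limma and an exact two-sided permutation p of 0.1, the smallest that 3 against 3 libraries can give. Itgam, which encodes CD11b, was at 273, 101 and 49.2 TPM in WT and 105, 93.7 and 35.6 TPM in C5aR-/- TAMs (adjusted p = 0.703, limma). Ly6g, the marker excluded by the sort, did not exceed 4.94 TPM in any library. Across the 14776 genes, limma called 0 (0.0%) at 2-fold or more and an adjusted p under 0.05, and 2 without the trend in its variance prior. At an unadjusted p under 0.05 limma found 2133 genes of any fold and 733 that also differed by 2-fold or more (the unadjusted threshold used throughout), of which 314 were higher in C5aR-/- TAMs and 419 lower.

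Lyz2 was by far the most abundant of the 8 genes, at rank 30 of all genes by mean TPM. It was at 5812, 2293 and 1408 TPM in WT TAM 1, 2 and 3 and at 4787, 2779 and 1151 TPM in C5aR-/- TAM 1, 2 and 3. It contributed between 73.6% and 84.7% of the summed TPM of the 8 genes in every library. The 8 genes together held 0.686%, 0.278% and 0.182% of all TPM in the WT libraries and 0.634%, 0.358% and 0.156% in the C5aR-/- libraries, so that the TAM 1 library of each group stood highest and its TAM 3 library lowest. In a bulk library, fewer macrophages and less of these RNAs per macrophage cannot be told apart.

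In WT TAMs the order of mean levels was Lyz2, Cd14, Cd68, Mpeg1, Ptprc, Adgre1, Lyz1 and Aif1. In C5aR-/- TAMs Aif1 stood above Lyz1 and the order was otherwise the same. Lyz2 was above the next gene in each of the 6 libraries. Between other neighbors in the order, the difference in mean TPM was larger than the SD of both genes only for Mpeg1 over Ptprc, which held in each group.

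**Figure D1:**
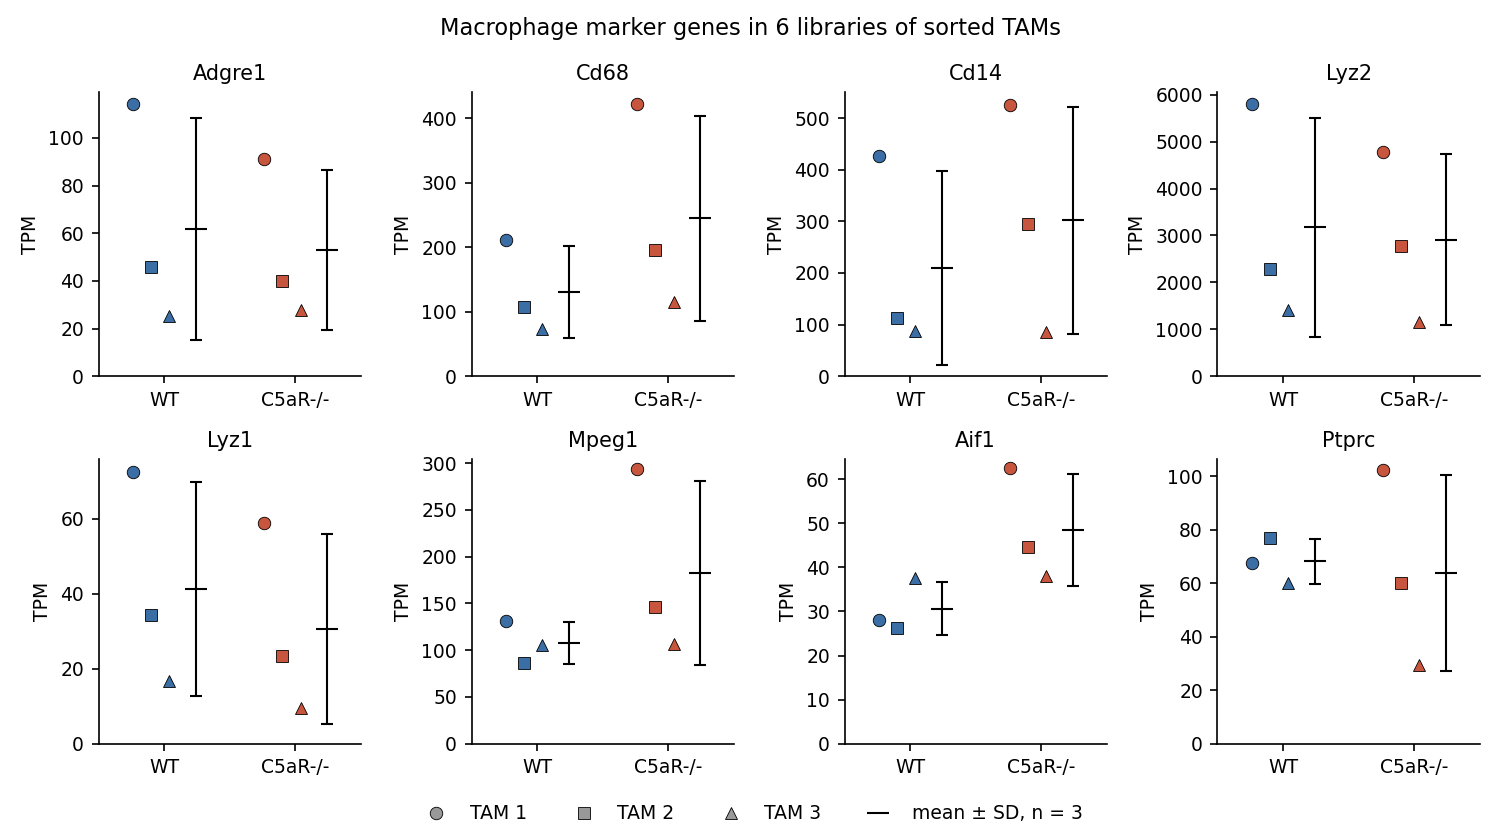
TPM of the 8 marker genes (vertical axes, each from 0 with its own range) in 3 WT libraries (blue) and 3 C5aR-/- libraries (red); marker shapes give the library number, and black bars give the mean ± SD of 3 libraries. The 2 groups overlap for 7 genes, and Aif1, at 26.3 to 37.5 TPM in WT and 38.1 to 62.6 TPM in C5aR-/- TAMs, is the exception.

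Among the genes of the macrophage surface, Adgre1 (ENSMUSG00000004730, chr17:57358691-57483527, plus strand, build mm10) was at 114, 45.8 and 25.4 TPM in WT TAM 1, 2 and 3 and at 91.1, 40.1 and 27.9 TPM in C5aR-/- TAM 1, 2 and 3. The group means were 61.8 ± 46.6 and 53.1 ± 33.5 TPM (SD, n = 3). The log2 difference, C5aR-/- minus WT on the log2(TPM + 1) scale, was -0.13 (SE 0.62), against a within-group SD of 0.97. The highest library exceeded the lowest 4.51-fold within WT and 3.26-fold within C5aR-/- TAMs, so the spread inside a genotype was far larger than the difference between genotypes, although every library had passed the F4/80 gate. Of 6 tested relatives of Adgre1 among the adhesion receptors, 2 were above 0 and 4 below, and none passed at the unadjusted threshold. The groups of 1 relative, Adgrg1, did not overlap, beside 21.3% of all tested genes. It was at 172, 194 and 170 TPM in WT and 131, 147 and 84.8 TPM in C5aR-/- TAMs (log2 difference -0.593, SE 0.218, adjusted p = 0.299, limma). The relative Adgre5, which encodes CD97, was at 204, 120 and 116 TPM in WT and 152, 89.3 and 56.5 TPM in C5aR-/- TAMs (adjusted p = 0.512, limma).

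Ptprc (ENSMUSG00000026395, chr1:138062861-138175708, minus strand) was at 67.5, 77.0 and 60.2 TPM in WT and at 102, 59.9 and 29.4 TPM in C5aR-/- TAM 1, 2 and 3. The WT libraries lay close together, at 68.3 ± 8.41 TPM, and the C5aR-/- libraries reached both above and below them, at 63.9 ± 36.7 TPM. The log2 difference was -0.26 (SE 0.42), against a within-group SD of 0.64.

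Cd14 (ENSMUSG00000051439, minus strand of chromosome 18) was at 427, 114 and 88.0 TPM in WT and at 526, 294 and 86.4 TPM in C5aR-/- TAM 1, 2 and 3. It varied most of the 8 genes, with a within-group SD of 1.27 on the log2 scale against a log2 difference of 0.55 (SE 0.81). The lowest libraries of the groups, both TAM 3, differed little, while WT TAM 2 lay near WT TAM 3 and C5aR-/- TAM 2 lay well above C5aR-/- TAM 3. A list of 14 genes held partners of CD14 in lipopolysaccharide sensing and related Toll-like receptors and adaptors. Of these, none passed the adjusted threshold of limma, 8 were above 0 and 6 below. At the unadjusted threshold 1 passed lower, beside 2.84% of all tested genes. That gene was Lbp, the serum protein that delivers lipopolysaccharide to CD14, at 38.0, 39.6 and 56.1 TPM in WT and 26.5, 24.3 and 7.37 TPM in C5aR-/- TAMs (adjusted p = 0.283).

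Cd68 (ENSMUSG00000018774, chr11:69664213-69666153, minus strand) was at 211, 107 and 73.5 TPM in WT TAM 1, 2 and 3 and at 422, 196 and 115 TPM in C5aR-/- TAM 1, 2 and 3. The means were 131 ± 71.7 and 245 ± 159 TPM, and the groups overlapped because WT TAM 1 lay above C5aR-/- TAM 2 and 3. The log2 difference of 0.83 (SE 0.55) was the largest of the 8 genes and slightly smaller than its within-group SD of 0.86. Of 10 tested genes for other lysosomal membrane proteins and proteases, 8 were above 0 and 2 below, with a median log2 difference of 0.35, and none passed at the unadjusted threshold. Cd63, which fell short of 2-fold, was at 310, 299 and 307 TPM in WT and 537, 481 and 490 TPM in C5aR-/- TAMs. Its log2 difference was 0.715 (SE 0.118, adjusted p = 0.0922, limma). It was the 1 gene of the list whose groups did not overlap, beside 21.3% of all tested genes. Ctss, the protease cathepsin S, was at 611, 341 and 427 TPM in WT and 1050, 834 and 590 TPM in C5aR-/- TAMs, a log2 difference of 0.84 (SE 0.29, adjusted p = 0.276, limma).

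Mpeg1 (ENSMUSG00000046805, chr19:12460779-12465283, plus strand) was at 131, 86.2 and 106 TPM in WT and at 293, 147 and 107 TPM in C5aR-/- TAM 1, 2 and 3. The means were 108 ± 22.6 and 182 ± 98.2 TPM and the log2 difference was 0.64 (SE 0.37), somewhat larger than the within-group SD of 0.57. The groups overlapped, since C5aR-/- TAM 3 lay below WT TAM 1, and without C5aR-/- TAM 1 the log2 difference was 0.24. Of 9 other genes for perforin, granzyme B, gasdermin D and terminal complement components, 4 could be tested and none passed at the unadjusted threshold.

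Aif1 (ENSMUSG00000024397, chr17:35170991-35176068, minus strand) was at 28.1, 26.3 and 37.5 TPM in WT and at 62.6, 44.6 and 38.1 TPM in C5aR-/- TAM 1, 2 and 3. It was the 1 gene of the 8 whose groups did not overlap, as was the case in 21.3% of all tested genes, with WT TAM 3 and C5aR-/- TAM 3 nearly level. The means were 30.7 ± 6.01 and 48.5 ± 12.7 TPM, and the log2 difference of 0.63 (SE 0.23) was 2.01 times the within-group SD of 0.31. In 9 genes for a related protein and for actin partners, 1 passed higher at the unadjusted threshold, beside 2.13% of tested genes. It was Aif1l, the closest relative of Aif1, at 4.03, 7.02 and 2.78 TPM in WT and 18.7, 7.15 and 8.98 TPM in C5aR-/- TAMs (log2 difference 1.13, SE 0.42, adjusted p = 0.302).

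The lysozyme genes lie side by side on chromosome 10, Lyz2 (ENSMUSG00000069516) at chr10:117277331-117282321 and Lyz1 (ENSMUSG00000069515) at chr10:117287797-117292868, both on the minus strand. Their coding sequences are the same at 422 of 444 bases (95.0%), and their whole transcripts at 1211 of 1317 aligned positions (92.0%). The first 40 codons of each, from the GENCODE M21 transcripts Lyz1-201 and Lyz2-201, are shown because this likeness bears on how reads could be assigned. Capitals mark the 11 positions at which they differ.
Lyz1: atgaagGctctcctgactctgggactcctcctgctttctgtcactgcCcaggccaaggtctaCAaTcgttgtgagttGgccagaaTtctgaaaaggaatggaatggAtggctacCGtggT
Lyz2: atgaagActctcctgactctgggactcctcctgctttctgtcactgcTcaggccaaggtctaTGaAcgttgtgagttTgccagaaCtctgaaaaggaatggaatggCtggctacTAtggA
The differences leave long runs that are identical. Of the 1214 stretches of 50 bases in the Lyz1 transcript, 195 (16.1%) were also present letter for letter in the Lyz2 transcript, and of 1164 stretches of 100 bases 24 (2.06%) were. A read that lies wholly within such a stretch can be given to either gene. The study reports paired reads longer than these stretches, and identity at their length was not counted. How far shared reads affect the values of the much less abundant Lyz1 was therefore not tested.

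Stretches upstream of the start sites of both genes are shown because the genes are neighbors with similar transcripts. Whether these stretches bear on the levels of either gene was not tested. They are 201 bases each in RefSeq sequence of build GRCm38, Lyz2 at chr10:117282322-117282522 and Lyz1 at chr10:117292918-117293118, written 5′ to 3′ on the minus strand. Each is the outermost part of its RefSeq window, which leaves a gap between the Lyz1 stretch and the start of Lyz1 and none for Lyz2 in GENCODE.
Lyz2: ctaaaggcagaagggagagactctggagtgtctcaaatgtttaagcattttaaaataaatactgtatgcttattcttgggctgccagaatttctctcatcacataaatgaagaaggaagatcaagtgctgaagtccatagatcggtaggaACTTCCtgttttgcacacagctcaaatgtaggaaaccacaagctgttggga
Lyz1: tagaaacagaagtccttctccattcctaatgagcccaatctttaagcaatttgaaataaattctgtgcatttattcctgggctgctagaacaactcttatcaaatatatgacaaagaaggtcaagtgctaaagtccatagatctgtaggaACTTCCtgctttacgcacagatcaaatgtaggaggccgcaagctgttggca
Capitals mark ACTTCC, the reverse complement of GGAAGT, a core recognized by factors of the ETS family such as PU.1, which is central to macrophage identity. The stretches were the same at 151 of 203 aligned positions (74.4%). In the windows from 250 bases before to 50 bases after each start, GGAAGT was searched on both strands and was found in 7809 of 32851 windows (23.8%). It was present for Lyz2, Lyz1, Cd68 and Ptprc, 4 of the 6 genes with a window, and these letters were not in the windows of Mpeg1 and Aif1. A match is only a match of letters.

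Lyz2 had means of 3171 ± 2329 TPM in WT and 2906 ± 1822 TPM in C5aR-/- TAMs. Its log2 difference was -0.10 (SE 0.67), against a within-group SD of 1.04, the smallest difference of the 8 genes in relation to its SD. Lyz1 was at 72.4, 34.4 and 16.6 TPM in WT TAM 1, 2 and 3 and at 58.8, 23.3 and 9.6 TPM in C5aR-/- TAM 1, 2 and 3, a log2 difference of -0.53 (SE 0.73) against a within-group SD of 1.14. Lyz1 amounted to 1.25%, 1.5% and 1.18% of Lyz2 in WT and to 1.23%, 0.838% and 0.834% in C5aR-/- TAMs, so the ratio stayed within narrow bounds and the groups overlapped. The 8 other genes of the lysozyme family were all under 1 TPM, with Lyzl1, Lyzl6 and Spaca3 listed at 0 in every library. The 6 other Paneth cell genes were likewise under 1 TPM in all libraries, and the defensin genes Defa24 and Defa30 were listed at 0.

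Neutrophils also make Lyz2, so their markers are given beside it. The summed TPM of 12 neutrophil genes was 1100, 2567 and 666 in WT TAM 1, 2 and 3 and 243, 443 and 33.6 in C5aR-/- TAM 1, 2 and 3, with no overlap of the groups. All 11 tested genes of the list were below 0, and 7 passed lower at the unadjusted threshold, beside 2.84% of tested genes, among them S100a8, a calcium-binding protein of neutrophil granulocytes, at 259, 641 and 156 TPM in WT and 45.1, 96.4 and 7.9 TPM in C5aR-/- TAMs (adjusted p = 0.224). The neutrophil sum was highest in the TAM 2 library of each group, while Lyz2 was highest in the TAM 1 library of each group. The part of neutrophil RNA in the lysozyme values was not tested.

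Across the 8 genes, 4 had a log2 difference above 0 (Cd68, Mpeg1, Aif1 and Cd14) and 4 below 0 (Lyz2, Adgre1, Ptprc and Lyz1). The median was 0.22, beside -0.05 over all tested genes. In 6 of the 8 the difference was smaller than the within-group SD, with Mpeg1 and Aif1 as the exceptions. Without C5aR-/- TAM 1 only 3 genes remained above 0, and without C5aR-/- TAM 3 all 8 were above 0. The latter turned Adgre1, Lyz2, Lyz1 and Ptprc, the former turned Cd14, and leaving out WT TAM 1 also turned Adgre1 (0.45) and Lyz2 (0.47).

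The spread between libraries of a genotype was the larger feature of these genes. The median within-group SD on the log2 scale was 0.91 for the 8 genes and 0.28 for all tested genes, and each of the 8 exceeded the latter. In C5aR-/- TAMs all 8 genes were highest in TAM 1 and lowest in TAM 3, where 39.6% of tested genes were highest in TAM 1. In WT TAMs 6 genes were highest in TAM 1 (24.2% of tested genes), the others being Ptprc, highest in TAM 2, and Aif1, highest in TAM 3. Mpeg1 and Aif1 were lowest in WT TAM 2 and the other 6 in WT TAM 3.

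**Figure D2:**
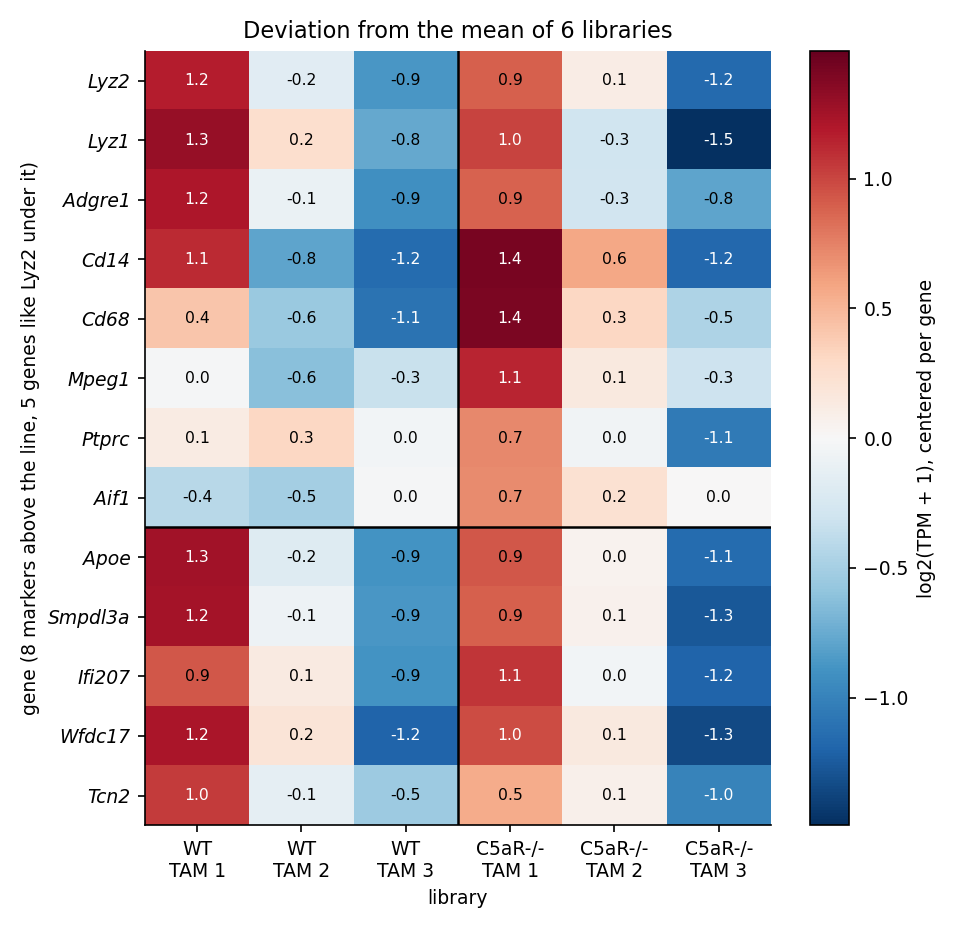
Deviation of each gene (vertical axis) in each library (horizontal axis) from its mean over 6 libraries, in log2(TPM + 1), with red above and blue below the mean; the 8 marker genes are above the horizontal line and the 5 other genes most like Lyz2 below it. Lyz2, Lyz1 and Adgre1 share one pattern, high in the TAM 1 and low in the TAM 3 library of both groups, while Mpeg1 is at and Aif1 below its mean in WT TAM 1.

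To find genes with the most similar profile, the mean absolute difference of centered log2(TPM + 1) over the 6 libraries was taken between each marker and 9255 genes with a mean of at least 10 TPM. Among the nearest to Adgre1 were Apoe, the lipid carrier apolipoprotein E (0.15), Lyz2 (0.156), Smpdl3a, a secreted phosphodiesterase (0.158), Sdc3, a syndecan (0.203) and Ms4a8a (0.212), where the median gene was at 0.736. Nearest to Lyz2 were Apoe (0.0363), Smpdl3a (0.0513), Ifi207 (0.154), Adgre1 (0.156), Wfdc17 (0.172) and Tcn2, a carrier of vitamin B12 (0.172), where the median gene was at 0.777. Apoe was at 13376, 4945 and 3040 TPM in WT and 10691, 5816 and 2535 TPM in C5aR-/- TAMs, and ran almost parallel to Lyz2. Of the other markers, Lyz1 stood at rank 12 for likeness to Adgre1 and Cd14, Cd68, Ptprc and Mpeg1 at ranks 361, 410, 519 and 1100. Aif1 was at rank 4696, no closer to Adgre1 than the median gene. For likeness to Lyz2, Lyz1 stood at rank 25 (0.249). The points share the 6 libraries and their scaling to 1000000 TPM, so these distances are a description.

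Ratios within a library remove whatever scales all macrophage RNA alike. The ratio of Lyz2 to Adgre1 was 50.8, 50.1 and 55.6 in WT TAM 1, 2 and 3 and 52.5, 69.3 and 41.2 in C5aR-/- TAM 1, 2 and 3. It spanned 1.68-fold over the 6 libraries, while Adgre1 itself spanned 4.51-fold. The groups overlapped entirely, with the 3 WT values inside the range of the C5aR-/- values.

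Within groups Cd68 followed Adgre1 about as closely as Lyz2 did, with within-group SDs of the log2 ratio of 0.25 and 0.27. Unlike that of Lyz2, its ratio to Adgre1 stood at different levels in the groups. The ratio of Cd68 to Adgre1 was 1.85, 2.35 and 2.90 in WT and 4.64, 4.89 and 4.13 in C5aR-/- TAMs, with means of 2.36 ± 0.528 and 4.55 ± 0.39. The log2 difference of this ratio was 0.97, against a within-group SD of 0.25, and it lay between 0.80 and 1.13 when each library was left out in turn. Because the groups did not overlap, leaving out 1 library could not have turned its sign. It was the 1 ratio to Adgre1, of 7, in which the groups did not overlap, beside 2.42% of tested genes, a share that includes genes unrelated to macrophages. The ratio was picked after the values had been seen.

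Cd68 per Lyz2 was 0.0363, 0.0468 and 0.0522 in WT and 0.0882, 0.0706 and 0.1 in C5aR-/- TAMs, and Cd14 per Lyz2 was 0.0735, 0.0496 and 0.0625 against 0.11, 0.106 and 0.0751, neither with overlap. Mpeg1 per Aif1 was 4.67, 3.27 and 2.82 in WT and 4.68, 3.28 and 2.8 in C5aR-/- TAMs, with a log2 difference of 0.00 against a within-group SD of 0.38, and these ratios overlapped. Ptprc per Adgre1 was 0.591, 1.68 and 2.38 in WT and 1.12, 1.49 and 1.05 in C5aR-/- TAMs, a spread of 4.02-fold over the libraries between the genes of the 2 proteins used in the sort. Among all 28 pairs of the 8 genes, 7 had ratios that did not overlap between groups, 4 of them with Cd68, beside 22.4% of all pairs of tested genes.

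**Figure D3:**
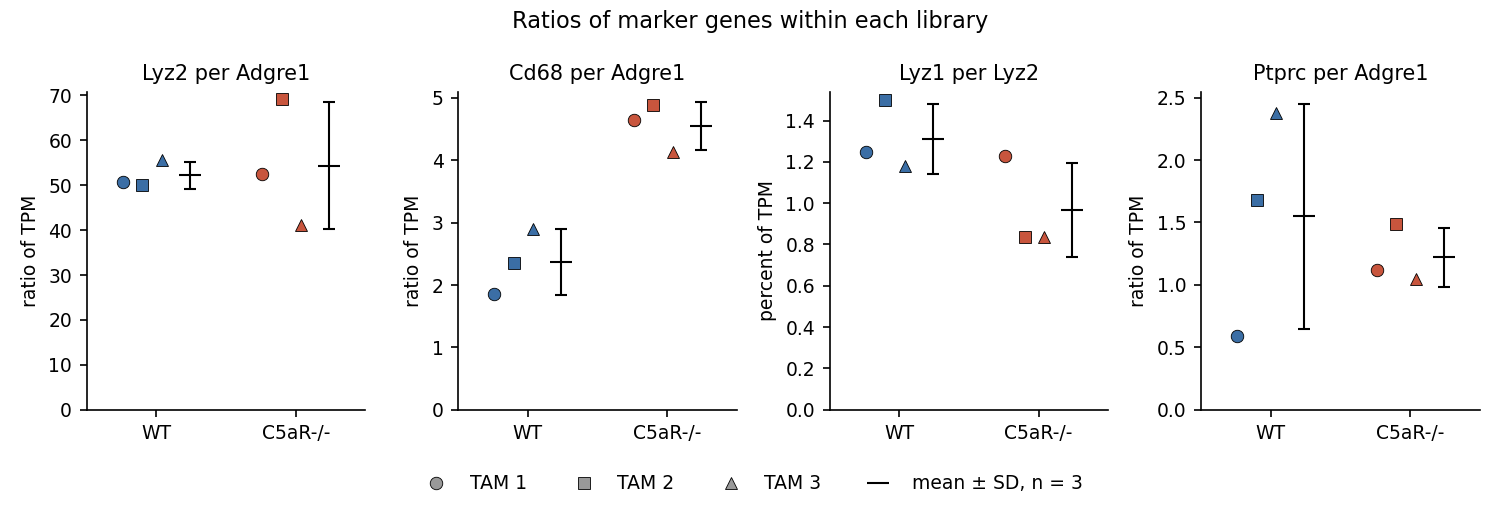
Ratios of TPM within each library (vertical axes, from 0) for Lyz2 per Adgre1, Cd68 per Adgre1, Lyz1 as a percent of Lyz2 and Ptprc per Adgre1, in 3 WT (blue) and 3 C5aR-/- libraries (red); marker shapes give the library number and black bars the mean ± SD. Only for Cd68 per Adgre1, at 1.85 to 2.90 in WT and 4.13 to 4.89 in C5aR-/- TAMs, are the groups of these 4 ratios apart.

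A list of 26 other macrophage genes was described beside the 8. This list, too, was drawn up with earlier results of these data known, and its counts are no independent evidence of a direction. None passed at the adjusted p by limma, 4 passed higher (2.13% of tested genes did) and 0 lower at the unadjusted threshold, and 22 were above 0 and 4 below, with a median log2 difference of 0.47. The 4 were Cx3cr1, the fractalkine receptor (log2 difference 1.63, SE 0.39, adjusted p = 0.162), Ms4a7, a tetraspan protein of macrophages (1.62, SE 0.40, adjusted p = 0.17), Trem2, a lipid receptor (1.39, SE 0.55, adjusted p = 0.326), and Lgmn, the lysosomal protease legumain (1.26, SE 0.29, adjusted p = 0.157). Cx3cr1 was at 8.08, 5.0 and 7.83 TPM in WT and 40.7, 21.7 and 14.2 TPM in C5aR-/- TAMs, and Lgmn at 248, 184 and 143 against 646, 391 and 355 TPM. Without C5aR-/- TAM 1, Cx3cr1 and Ms4a7 alone passed and the median fell to 0.14. Relative to Adgre1 in the same library, 9 of the 26 were apart between groups, all higher in C5aR-/- TAMs, beside 2.42% of tested genes. Of 10 genes of resident large peritoneal macrophages, described below, 5 were apart relative to Adgre1, all lower in C5aR-/- TAMs. Genes that follow Adgre1 across libraries have tighter ratios to it than unrelated genes do, so the share over all tested genes is no measure of what macrophage genes would give.

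**Figure D4:**
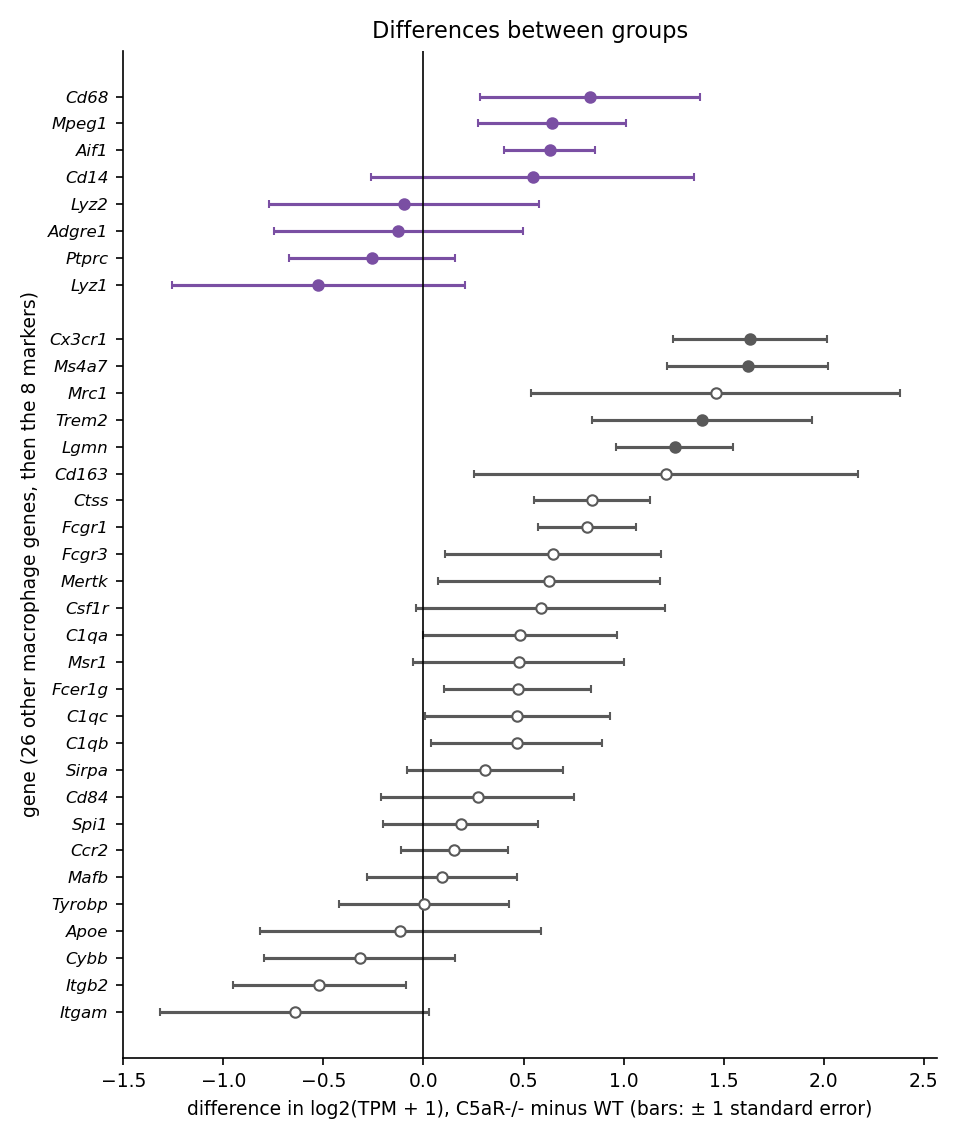
Difference in log2(TPM + 1), C5aR-/- minus WT (horizontal axis), of the 8 marker genes (purple, untested) and of 26 other macrophage genes (gray), with bars of 1 standard error from limma; filled gray points passed at the unadjusted threshold. The 8 markers divide 4 and 4 around 0, and 22 of the 26 other genes lie above 0.

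Of 10 genes of resident large peritoneal macrophages, 4 passed lower at the unadjusted threshold, beside 2.84% of tested genes, and none at the adjusted p of limma. The median log2 difference was -1.68, and the 6 that did not pass were also below 0, among them Fn1, the matrix protein fibronectin (-0.52, SE 0.43). Gata6, also among them, differed little and overlapped between groups (-0.163, SE 0.145). It was at 116, 91.1 and 107 TPM in WT and 89.1, 104 and 86.8 TPM in C5aR-/- TAMs. Prg4, the lubricant proteoglycan 4, was at 777, 182 and 68.3 TPM in WT and 18.3, 48.7 and 3.87 TPM in C5aR-/- TAMs, and Timd4, a receptor for dying cells, at 28.4, 13.5 and 13.2 against 11, 7.18 and 1.77 TPM. The summed TPM of the list was 732 to 2449 in WT and 408 to 919 in C5aR-/- TAMs. Adgre1, a further gene that large peritoneal macrophages express strongly, was highest in TAM 1 of each group, as was this sum. Fn1 held 725, 322 and 295 TPM of the C5aR-/- sums of 919, 558 and 408. Of the 4 genes that passed, Prg4 and Alox15 were highest in C5aR-/- TAM 2, and Timd4 and Icam2 in C5aR-/- TAM 1. Whether the mix of macrophage kinds took part in the levels of Adgre1, Lyz2 and Cd68 was not tested.

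The cell type named by the labels was checked against marker genes. The summed TPM of the 26 macrophage genes was 18796, 7628 and 5438 in WT and 18062, 10402 and 5567 in C5aR-/- TAMs, in the same order within each group as Lyz2, with Apoe as the largest part of each sum. Epithelial and ovarian tumor genes were abundant as well, at a sum of 2029 to 2228 in WT and 1818 to 2354 in C5aR-/- TAMs over 12 genes, and keratin 19 (Krt19) at 892, 831 and 1102 against 745, 1001 and 433 TPM exceeded Adgre1 and Ptprc in every library. Mesothelial genes summed to 1079 to 1465 and 770 to 1071 TPM, with 3 of 7 lower at the unadjusted threshold. The libraries labelled as sorted TAMs thus held abundant transcripts of genes that macrophages are not known for, and the 8 markers were measured beside them. Their part in the spread of the 8 genes was not tested.

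Lists for white blood cells in general and for B and T cells were summed as well. The 15 genes shared by white blood cells, macrophages included, summed to 969 to 1473 TPM in WT and 676 to 1762 TPM in C5aR-/- TAMs. Of these, 0 passed at the unadjusted threshold. B cell genes were at 143, 172 and 35.4 TPM in WT and 178, 58.9 and 9.51 TPM in C5aR-/- TAMs, and T cell genes at 30.2 to 105 and 24.8 to 70.3 TPM, with none of either list passing. Like Ptprc, which B cells also express, the B cell sum was highest in TAM 2 of WT and TAM 1 of C5aR-/- mice and lowest in the TAM 3 library of each. Its part in the Ptprc level was not tested. Of 11 substrates and regulators of CD45, such as the kinases Lyn and Csk, 4 were above 0 and 7 below, and none passed.

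**Figure D5:**
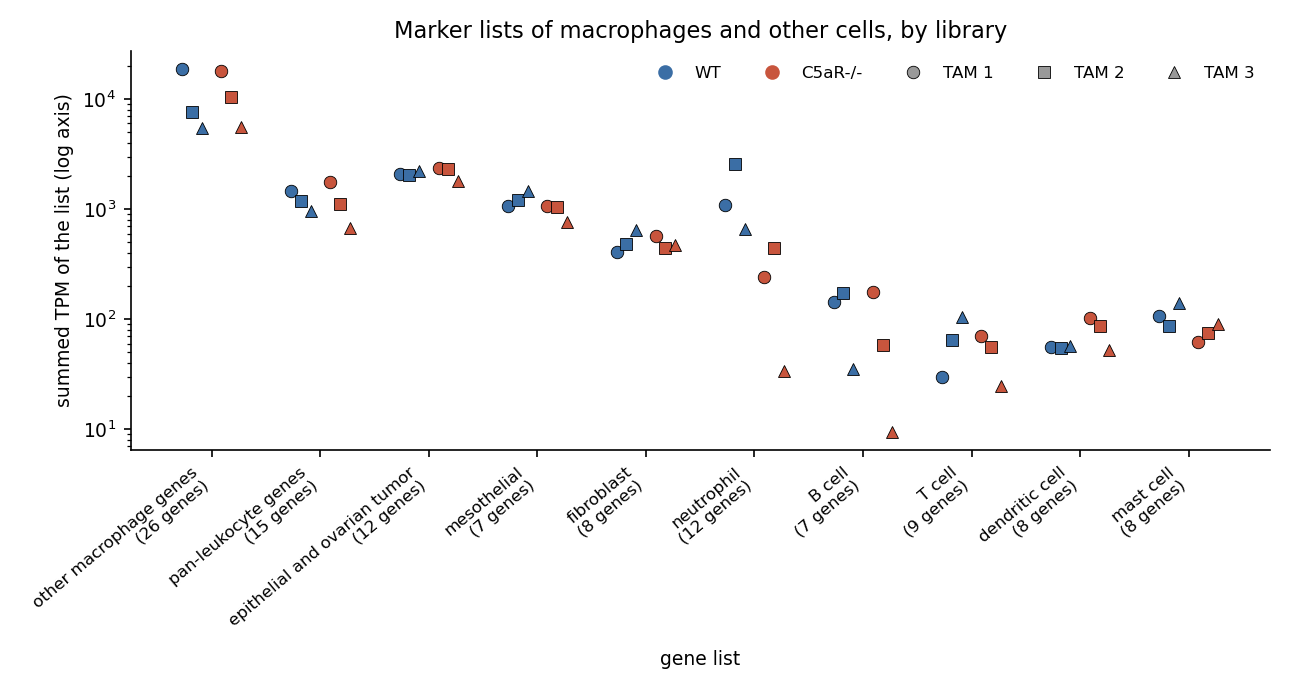
Summed TPM (vertical axis, log scale) of 10 gene lists (horizontal axis, with the number of genes listed) in WT (blue) and C5aR-/- libraries (red), with marker shapes for the library number. The macrophage sum is 5438 to 18796 over the 6 libraries, the epithelial sum stays at 1818 to 2354, and the neutrophil sums of the groups, 666 to 2567 in WT and 33.6 to 443 in C5aR-/- TAMs, do not overlap.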

How the data were processed

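RNA of sorted TAMs was measured in 6 libraries, grouped as WT or C5aR-/- by the sample labels. The authors used fastp for trimming, HISAT2 for alignment and StringTie for transcript assembly, and deposited TPM values per gene, which sum to 1000000 in each library. The submitters' processing notes also name RSEM, DESeq2 and build mm10, and versions are not given in the sources used here. The study's methods state FPKM, while the values are TPM, so no count test was run and depth is unknown. The precision of a single value therefore cannot be given, and the spread between libraries is the error used. A legend of the study names 4 mice a group, where each group here has 3 libraries. The authors' group means in the same table were not used.

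Symbols and coordinates came from GENCODE M21 (GRCm38, the assembly of mm10). limma 3.58.1 in R 4.3.3 was run on log2(TPM + 1) for genes that reached 1 TPM in 3 or more libraries (lmFit, eBayes with trend, Benjamini-Hochberg over 14776 genes). The test was tested on simulated data. A fold change on this scale understates changes of low genes. Other steps used Python 3.11.15, pandas 2.3.3, numpy 2.4.6, scipy 1.17.1 and Biopython 1.88. The within-group SD is the pooled SD of log2(TPM + 1) over both groups.

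The members and lists were chosen with earlier results of these data known. Named genes were the 8 members, C5ar1, the sort's genes, the most abundant and the called genes of each list, and the 5 genes outside the 8 most like Adgre1 or Lyz2, of which 1 is not reported here. The ratio of Cd68 to Adgre1, the tally of pairs, the motif and the lysozyme comparison were added after values were seen. Alternatives changed the pseudocount, the filter, the scaling, the variance prior, the block on replicate number and the libraries included. Adgre1 and Cd14 promoters were not analysed here.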

Additional observations from a re-analysis of the deposited data

How the results depend on the processing

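The count of genes past the adjusted threshold was 0 with all 6 libraries, 2 by eBayes without trend, and 0 to 356 with 1 library left out in turn, reaching 356 without C5aR-/- TAM 1, 3 without C5aR-/- TAM 3 and 1 without C5aR-/- TAM 2. The 733 genes past the unadjusted threshold became 475 with a TPM filter of at least 5, and 567 to 1266 with 1 library left out, the highest again without C5aR-/- TAM 1. The share of these that were higher in C5aR-/- TAMs was 42.8%, and 51% under quantile normalization. The C5ar1 log2 difference was -7.25 with a pseudocount of 0.1, which shrinks the low C5aR-/- values less, and ranged from -5.63 to -4.45 with 1 library left out, and its adjusted p from 0.0221 (without C5aR-/- TAM 1) to 0.329. Of the other macrophage genes, 2 to 6 passed with 1 library left out, 2 without C5aR-/- TAM 1 and 6 without C5aR-/- TAM 3. The causes were not tested.

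Deviations of same-numbered libraries correlated at 0.186, -0.01 and 0.272. For TAM 1 and TAM 3 these were the highest correlations with any library of the other group. C5aR-/- TAM 2 instead correlated best with WT TAM 1 (0.016). Whether the replicate numbers pair the samples cannot be told from these values. With a block on the replicate number, the adjusted count was 0 and the unadjusted count 811, 6 of the other macrophage genes passed, adding Cd163 and Mrc1, and the median of the 8 markers stayed at 0.22. For the 8 markers no scaling, filter or pseudocount turned a direction, apart from Adgre1 (0.14) and Lyz2 (0.17) as ratios to Ptprc. With 1 library left out, the Adgre1 difference ranged from -0.62 to 0.45, Lyz2 from -0.57 to 0.47, Lyz1 from -1.16 to 0.09, Ptprc from -0.68 to 0.20 and Cd14 from -0.03 to 1.27, while Cd68 (0.34 to 1.27), Mpeg1 (0.24 to 0.96) and Aif1 (0.43 to 0.78) were above 0 in each of the 6 fits. The median of the 8 markers ranged from -0.30 to 0.62. Lyz1 and Lyz2 summed gave -0.10. TPM keeps no depth, so the counting error of low values such as Lyz1 could not be given.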

Other observations

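Mast cell genes were among those with the largest differences between genotypes in the lists examined. Of 7 tested, 5 passed lower in C5aR-/- TAMs at the unadjusted threshold, beside 2.84% of tested genes, and Kit passed higher, beside 2.13%. Cpa3, a mast cell protease, was at 19.0, 11.8 and 26.7 TPM in WT and 1.59, 0.57 and 0 TPM in C5aR-/- TAMs (log2 difference -3.59, SE 0.43, adjusted p = 0.0666, limma), and Mcpt4, a chymase, at 12.4, 12.0 and 22.4 against 0.25, 0 and 0 TPM (adjusted p = 0.0666). Among epithelial genes, the claudin gene Cldn3 was at 38.5 to 48.6 TPM in WT and 102 to 138 TPM in C5aR-/- TAMs (log2 difference 1.41, SE 0.17, adjusted p = 0.0666). Muc16, which encodes the ovarian antigen CA125, was at 142, 147 and 148 against 39.2, 36.6 and 10.2 TPM (log2 difference -2.52, SE 0.48, adjusted p = 0.111).

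Dendritic cell genes summed to 55.4 to 56.6 TPM in WT and 52.8 to 103 TPM in C5aR-/- TAMs, NK cell genes to 7.78 to 34.2 and 10.9 to 17.5 TPM, and endothelial genes to 12.8 to 18.5 and 10.1 to 27.5 TPM, with none passing. Fibroblast genes summed to 411 to 644 and 444 to 567 TPM, with Col1a2 and Thy1 lower at the unadjusted threshold, beside 2.84% of tested genes. Of 6 tested, 5 were below 0. Col1a1 was above 0, at 3.52, 7.13 and 10.8 TPM in WT and 1.21, 43.3 and 236 TPM in C5aR-/- TAMs. Eosinophil genes summed to 3.11 to 9.92 and 1.26 to 2.75 TPM. The 1 gene of that list that could be tested, Prg2, was lower at the unadjusted threshold, beside the same share.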
